A study of Mus musculus with 18 samples.

Results

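The response to bexarotene, a ligand that activates the retinoid X receptor (RXR), was followed through 8 lipid genes that are described as targets of the liver X receptors (LXR), which bind DNA as partners of RXR: Mylip, Eepd1, Arl4c, Rnf145, Srebf1, Scd2, Lpcat3 and Smpdl3a. The members were chosen by name, leaving out the cholesterol exporters Abca1 and Abcg1, and each matched 1 Ensembl identifier among the 57010 genes of the count table. All 8 passed the filter on low counts, so none is missing from the results.

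LXR is activated by oxysterols, which accumulate when a cell holds too much cholesterol, and an RXR ligand can activate the LXR-RXR pair from the RXR side. The targets lower the cell's cholesterol load by exporting it, by limiting its uptake and its synthesis, and by adjusting the fatty acids that go into membrane lipids. In brain macrophages that take up myelin debris after an injury, this programme handles the sterol that the debris brings.

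The RNA came from cells of the brains of male wild-type mice, taken after neutrophils had been removed with anti-Ly6G beads and the remaining CD11b+ cells (microglia and macrophages) retained. Bexarotene or vehicle was given to young mice, aged 2 to 4 months, and to aged mice, aged 18 to 20 months, and 2 more groups of aged mice received either after ischemic stroke by middle cerebral artery occlusion (MCAo). Bexarotene was injected intraperitoneally at 5 mg/kg, starting 24 hours after surgery, the vehicle was 3% DMSO in saline, and the labelled time is day 3. There were 6 groups of 3 libraries, labelled as biological replicates; the labels state neither whether mice were pooled nor which surgery, if any, was done in the groups without stroke.

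Libraries without stroke held 7582511 to 11852638 counts and those with stroke 16206144 to 29359943. The labelled cell type had its markers: 6 microglial genes summed to between 30855 and 44981 CPM (a gene's counts scaled to the library's total) in the 12 libraries without stroke. After stroke that sum was 13466 to 16837 CPM. A sum of 6 genes of monocyte-derived macrophages was 36.0 to 182 CPM without stroke and 1439 to 3569 CPM with it. Choroid plexus genes were high in the libraries numbered 1, from 1769 to 3222 CPM except for 626 CPM in the stroke bexarotene group, against 143 to 1155 CPM in the other libraries, and the stroke bexarotene libraries were all below the stroke vehicle libraries. A fall in a gene's share of a bulk library can come from fewer cells of a type or from less RNA per cell, which cannot be told apart here.

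The DNA just upstream of the genes is shown first, because the LXR-RXR pair binds a direct repeat of a 6-base half-site with 4 bases between the copies (DR4, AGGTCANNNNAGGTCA). RefSeq promoter windows (GRCm38.p6) were found for 6 of the 8 genes, giving 10 windows, since Rnf145 and Srebf1 each have 3 starts. Scd2 and Smpdl3a had no entry. The 250 bases before each start were searched on both strands. No window of these genes held the DR4 with up to 2 mismatches, a pattern present in 2.57% of 32851 windows genome-wide. Allowing 3 mismatches, Arl4c, the third start of Rnf145 and the third start of Srebf1 had matches, and this looser pattern was present in 18.5% of all windows. The matches are shown in capitals, each sequence running 5′ to 3′ along the gene's strand: Arl4c at chr1:88702224-88702283 (minus strand), Rnf145 at chr11:44520175-44520234 (plus strand), Srebf1 at chr11:60210616-60210675 (minus strand), and Eepd1, with no match, at chr9:25481497-25481596 (plus strand).
Arl4c: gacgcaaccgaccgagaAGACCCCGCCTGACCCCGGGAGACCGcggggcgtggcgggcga
Rnf145: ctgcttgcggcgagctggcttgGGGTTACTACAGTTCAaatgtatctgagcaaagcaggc
Srebf1: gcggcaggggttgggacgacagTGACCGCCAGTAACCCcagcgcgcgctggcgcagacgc
Eepd1: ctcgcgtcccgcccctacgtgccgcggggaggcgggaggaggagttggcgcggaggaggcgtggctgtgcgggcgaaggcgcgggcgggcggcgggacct
The Arl4c capitals hold 2 overlapping matches on the opposite strand, at -75 and -65 from the start, and the half-site variant GGGTCA lies inside them. GGGTCA was also in the window of the first Rnf145 start, at -212 on the same strand. It was present in 11.6% of all windows, and AGGTCA, present in 14.0%, was in none of the 10. The DR4 match of Rnf145 was at -92 on the same strand and that of Srebf1 at -182 on the opposite strand. Read in the direction of the motif, they had 12 of 16 letters in common. Both were picked for likeness to the same motif, so shared letters follow in part from the search. Other pairs of matches shared 8 to 11 letters. These are matches of letters in a short window, and whether the receptors bind any of them was not tested here.

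Per kilobase of exon, which allows levels of different genes to be compared, Mylip had the highest level of the 8 in young vehicle mice, at 92.6 CPM per kb. Lpcat3 followed at 56.0, Rnf145 at 31.0, Scd2 at 29.6 and Smpdl3a at 22.4 CPM per kb. Srebf1 (9.47), Eepd1 (9.03) and Arl4c (8.55) had the lowest levels per kb. Under bexarotene in young mice Eepd1 stood at 53.7 CPM per kb, above Rnf145 at 50.6. After stroke under vehicle the highest level was that of Smpdl3a, at 121 CPM per kb, while Mylip stood at 40.5.

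Bexarotene raised Eepd1 by more than any other of the 8 genes in the mice without stroke, raised Rnf145 in all 3 settings, and raised Arl4c in young mice. Mylip was higher in every bexarotene library than in every vehicle library of the same setting. Scd2 was lower in both settings without stroke, with adjusted p-values above the threshold in each setting alone. Srebf1, Lpcat3 and Smpdl3a had smaller differences, and none of them passed in a single setting. By edgeR's quasi-likelihood test with an adjusted p under 0.05 over 15528 genes, 3 of the 8 members rose and 0 fell in young mice, where 0.509% of all genes passed (0.419% higher, 0.0902% lower). In aged mice 2 of 8 rose and 0 fell, where 0.258% of all genes passed (0.238% higher, 0.0193% lower). After stroke 1 of 8 rose and 0 fell, where 0.058% of all genes passed (0.0515% higher, 0.00644% lower). DESeq2 called 4, 4 and 3 of the 8 in these settings, beside 1.47%, 0.757% and 0.38% of all genes. The groups of 3 did not overlap for 6 of 8 members in young mice (13.1% of all genes), for 8 of 8 in aged mice (11.8%) and for 4 of 8 after stroke (11.3%). The median log2 fold change of the 8 was 0.40 in young mice, 0.39 in aged mice and 0.38 after stroke, while that of all genes was 0.00 in each.

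**Figure D1:**
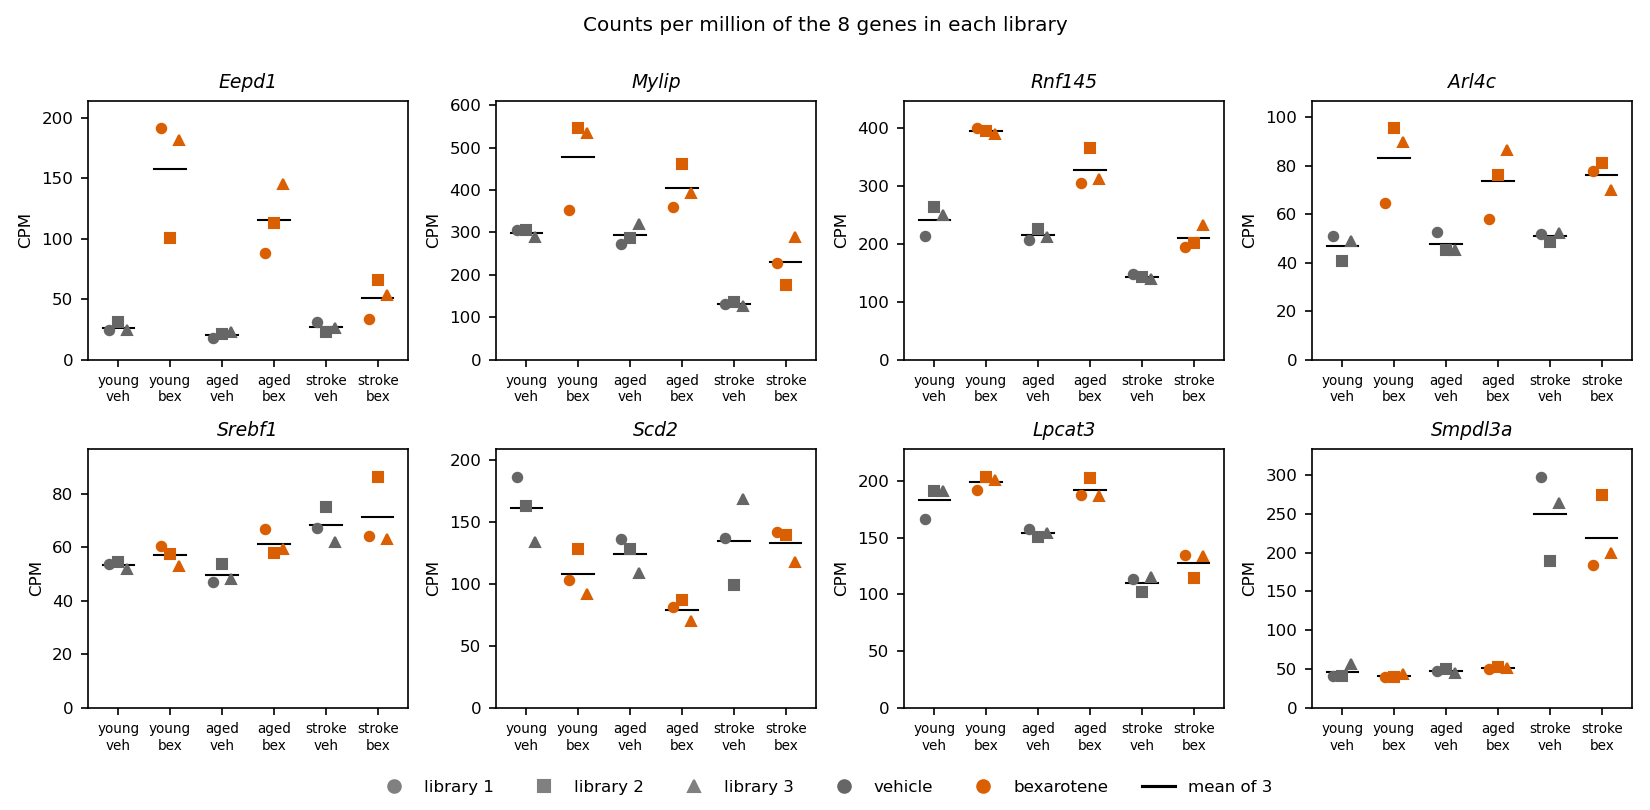
CPM of the 8 genes (y axis, linear from 0, each panel with its own scale) in the 18 libraries, arranged by group on the x axis. Points are libraries (shape gives the replicate number, colour the treatment) and black lines are means of 3. For Eepd1, Mylip, Rnf145 and Arl4c the bexarotene points lie above the vehicle points in each of the 3 settings, and Smpdl3a lies between 184 and 298 CPM after stroke and at most 56.8 CPM elsewhere.

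Eepd1 encodes a membrane-associated protein of the endonuclease, exonuclease and phosphatase fold that has been linked to ABCA1-dependent cholesterol efflux in macrophages. In young mice its level was 24.5, 30.7 and 24.3 CPM under vehicle and 191, 101 and 182 CPM under bexarotene. In aged mice it was 18.0, 21.0 and 22.5 CPM under vehicle and 88.0, 113 and 145 CPM under bexarotene. Every treated library stood several times above every vehicle library in both ages. The log2 fold change was 2.58 ± 0.27 (SE, adjusted p = 0.000139, edgeR, n = 3 per group) in young mice and 2.49 ± 0.27 (adjusted p = 0.000301) in aged mice.

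After stroke Eepd1 was 30.7, 22.7 and 26.5 CPM under vehicle and 33.9, 65.7 and 53.0 CPM under bexarotene. The groups did not overlap, but the lowest treated library was close to the highest vehicle library. The log2 fold change was 0.93 ± 0.25, with an adjusted p of 0.336 by edgeR and 0.0453 by DESeq2. Among the treated stroke libraries, Eepd1 and the summed monocyte markers stood in the same order: the library at 33.9 CPM had a marker sum of 1439 CPM, that at 53.0 had 2182, and that at 65.7 had 3569. In the vehicle stroke libraries the orders differed, with Eepd1 at 30.7, 22.7 and 26.5 CPM beside sums of 2472, 1987 and 2910 CPM. The part of these cells in the Eepd1 level was not tested.

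Arl4c encodes a small GTPase of the ARF-like family that acts in vesicle transport and has been linked to the movement of cholesterol to the exporters. In young mice it was at 51.1, 40.9 and 49.0 CPM under vehicle and at 64.6, 95.3 and 89.7 CPM under bexarotene, a log2 fold change of 0.82 ± 0.15 (adjusted p = 0.0152, edgeR). In aged mice the values were 52.5, 45.3 and 45.4 CPM under vehicle and 58.1, 76.2 and 86.5 CPM under bexarotene (0.62 ± 0.15, adjusted p = 0.122). After stroke they were 51.9, 48.4 and 52.2 CPM under vehicle and 77.7, 81.2 and 70.0 CPM under bexarotene (0.59 ± 0.15, adjusted p = 0.244). Arl4c was thus higher in every treated library in each setting, and library 1 was the lowest of the treated libraries in the young and in the aged mice. The call in young mice was lost without vehicle library 2 (adjusted p = 0.0907) or 3 (0.0638) or without bexarotene library 2 (0.0687) or 3 (0.0747), and when only the young groups were fitted (0.0764). In aged mice Arl4c passed without bexarotene library 1 (0.0386) and by DESeq2 (0.0205).

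Mylip, also called IDOL, encodes a ubiquitin ligase that marks lipoprotein receptors for degradation and so limits cholesterol uptake. In young mice it stood at 305, 305 and 288 CPM under vehicle and at 352, 545 and 535 CPM under bexarotene (0.67 ± 0.16, adjusted p = 0.0794, edgeR). In aged mice it stood at 272, 287 and 320 CPM under vehicle and at 360, 462 and 392 CPM under bexarotene (0.47 ± 0.16, adjusted p = 0.518). After stroke it stood at 131, 137 and 126 CPM under vehicle and at 227, 177 and 289 CPM under bexarotene (0.82 ± 0.16, adjusted p = 0.0974). The vehicle libraries of each setting were close together, and the treated libraries were all higher and more spread. Mylip passed without young bexarotene library 1 (adjusted p = 0.0158) and by DESeq2 (0.0107) in young mice, and without stroke bexarotene library 2 (0.0216) and by DESeq2 (0.00157) after stroke.

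Rnf145 encodes a ubiquitin ligase of the endoplasmic reticulum that acts on proteins of sterol sensing and synthesis. In young mice it was at 213, 263 and 249 CPM under vehicle and at 399, 395 and 389 CPM under bexarotene, and it rose by 0.71 ± 0.10 on the log2 scale (adjusted p = 0.000999, edgeR). In aged mice it was at 207, 226 and 212 CPM under vehicle and at 305, 365 and 312 CPM under bexarotene (0.61 ± 0.10, adjusted p = 0.00852). After stroke it was at 148, 143 and 140 CPM under vehicle and at 194, 202 and 233 CPM under bexarotene (0.55 ± 0.10, adjusted p = 0.0443). The treated and vehicle libraries were well separated in each setting, and the 3 estimates lay between 0.55 and 0.71.

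The calls for Rnf145 in aged mice and after stroke depended on single libraries. In aged mice the adjusted p was 0.0555 without vehicle library 1, 0.0822 without vehicle library 3 and 0.0625 without bexarotene library 2. After stroke it was 0.146, 0.146 and 0.154 without vehicle library 1, 2 and 3 and 0.0583 and 0.177 without bexarotene library 1 and 3, while the log2 fold change of Rnf145 over all alternatives lay between 0.47 and 0.65. Without all libraries numbered 1, which carried the choroid plexus genes, its adjusted p was 0.0974 in young mice, 0.0571 in aged mice and 0.098 after stroke. Leaving out any of those 3 single libraries took the number of the 8 called in aged mice from 2 to 1, and leaving out any of those 5 took it from 1 to 0 after stroke. Without the libraries numbered 1 it went from 3 to 2 in young mice and from 1 to 0 after stroke, and it was 2 in aged mice, where Arl4c passed (adjusted p = 0.0327) in place of Rnf145.

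Srebf1 encodes SREBP-1, whose 1c form is induced by LXR and drives fatty acid synthesis genes; gene counts do not separate the 1a and 1c forms. It was at 53.5, 54.5 and 52.0 CPM under vehicle and 60.6, 57.5 and 52.9 CPM under bexarotene in young mice, with overlapping groups. In aged mice it was at 47.0, 53.6 and 48.3 CPM and, with treatment, at 66.6, 57.8 and 59.3 CPM, without overlap. After stroke it was at 67.3, 75.0 and 62.0 CPM and, with treatment, at 64.1, 86.3 and 63.0 CPM, again overlapping. The log2 fold changes of Srebf1 were 0.10 ± 0.12, 0.30 ± 0.12 and 0.06 ± 0.12, with adjusted p-values of 0.927, 0.619 and 0.992 (edgeR). The 95% interval in young mice ran from -0.16 to 0.35. Exons of Srebf1 overlap 109 bases of Rai1 on the other strand, and no source used here gives the strand setting of the counting.

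Scd2 encodes the stearoyl-CoA desaturase that is abundant in brain and makes monounsaturated fatty acids. In young mice it was at 187, 163 and 134 CPM under vehicle and at 103, 128 and 91.8 CPM under bexarotene (log2 fold change -0.58 ± 0.17, adjusted p = 0.205, edgeR). The aged mice had 136, 129 and 109 CPM under vehicle and 81.2, 87.0 and 70.0 CPM under bexarotene (-0.65 ± 0.17, adjusted p = 0.233). After stroke it was at 138, 99.6 and 168 CPM under vehicle and at 143, 140 and 118 CPM under bexarotene (-0.02 ± 0.17, adjusted p = 0.997). Scd2 thus lay below vehicle in every treated library without stroke, as 1.02% of all genes did, and the stroke groups overlapped. The call in aged mice was made by DESeq2 (adjusted p = 0.0371). Oligodendrocytes express much Scd2, and the sum of 7 oligodendrocyte genes was 203 to 306 CPM under vehicle and 181 to 245 CPM under bexarotene in young mice, and 232 to 267 CPM against 205 to 222 CPM in aged mice. Their part in the Scd2 levels was not tested.

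Lpcat3 encodes the acyltransferase that puts polyunsaturated fatty acids into membrane phospholipids. In young mice it was at 166, 191 and 191 CPM under vehicle and at 192, 204 and 201 CPM under bexarotene (0.12 ± 0.09, adjusted p = 0.803, edgeR). The aged libraries were at 158, 150.5 and 154 CPM under vehicle and at 188, 203 and 187 CPM under bexarotene (0.32 ± 0.09, adjusted p = 0.237). After stroke it was at 114, 102 and 115 CPM under vehicle and at 135, 115 and 134 CPM under bexarotene (0.21 ± 0.09, adjusted p = 0.669). The treated means were higher by a small step in each setting, and the groups overlapped after stroke only. Exons of Lpcat3 overlap 334 bases of Emg1 on the other strand, and Emg1 had a mean of 653 counts per library against 2038 for Lpcat3.

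Smpdl3a encodes a secreted phosphodiesterase related to acid sphingomyelinase that was described as an LXR target in human macrophages. In young mice it was at 40.9, 41.3 and 56.8 CPM under vehicle and 39.9, 40.1 and 43.8 CPM under bexarotene (-0.17 ± 0.17, adjusted p = 0.891, edgeR). Aged mice had 46.9, 49.5 and 44.6 CPM and, with treatment, 49.8, 53.0 and 51.5 CPM (0.13 ± 0.17, adjusted p = 0.977). After stroke it was at 298, 189 and 264 CPM and, with treatment, at 184, 275 and 199 CPM (-0.19 ± 0.16, adjusted p = 0.953). Treated and vehicle libraries overlapped in young mice and after stroke, and in aged mice the treated libraries were all above vehicle by a narrow margin. The 95% interval of the log2 fold change reached from -0.53 to 0.48 over the 3 settings.

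**Figure D2:**
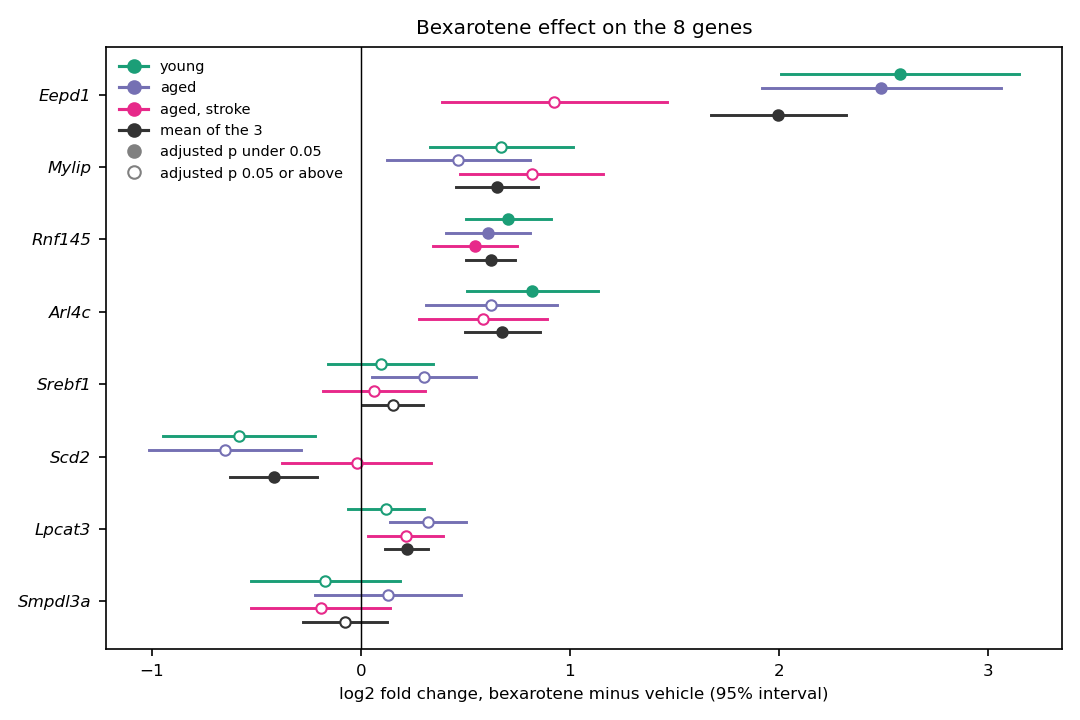
Log2 fold change of bexarotene against vehicle (x axis) for each of the 8 genes (y axis) in young mice, aged mice, aged mice after stroke and as the mean of the 3. Points are edgeR estimates, bars are 95% intervals, and filled points had an adjusted p under 0.05. Eepd1 stands at 2.58 and 2.49 without stroke and at 0.93 with it, while Rnf145 is filled in every setting.

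Averaged over the 3 settings, which uses all 18 libraries, 5 of 8 members rose and 1 fell with bexarotene, where 2.09% of all genes passed in either direction (1.38% higher and 0.715% lower). Eepd1 rose by 2.00 ± 0.15 on the log2 scale (adjusted p = 1.27e-06, edgeR). Arl4c rose by 0.68 ± 0.09 (adjusted p = 0.000165), Mylip by 0.65 ± 0.09 (0.000641) and Rnf145 by 0.62 ± 0.06 (2.35e-06). These genes, which act in efflux, uptake and sterol control, were the 4 members whose treated libraries lay above vehicle in all 3 settings, which 0.496% of all genes did.

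The mean effect on the other members was smaller and went in both directions. Lpcat3 rose by 0.22 ± 0.05 on the log2 scale (adjusted p = 0.0245, edgeR), and Scd2 fell by 0.42 ± 0.10 (adjusted p = 0.0316). Srebf1 was at 0.15 ± 0.07 (adjusted p = 0.348) and Smpdl3a at -0.08 ± 0.10 (adjusted p = 0.819). The calls for Lpcat3 and Scd2 were close to the threshold. Leaving out any of 7 single libraries lost that of Lpcat3, with adjusted p-values of 0.0536 to 0.0589 (vehicle libraries young 1, aged 2 and stroke 2; bexarotene libraries young 3, aged 2, stroke 1 and stroke 3). Leaving out any of 11 lost that of Scd2, at 0.0544 to 0.0839 (vehicle libraries 1 and 2 of the young, 1 and 2 of the aged, 1 and 3 of the stroke group; bexarotene libraries 1 and 3 of the young, 1 and 3 of the aged, 3 of the stroke group). Without the libraries numbered 1 the adjusted p was 0.193 for Lpcat3 and 0.395 for Scd2.

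Whether the bexarotene effect itself differed with age or stroke was tested as an interaction. Between aged and young mice 0 of 8 members passed, as did 0% of all genes, and 0 had an unadjusted p under 0.05 by edgeR; DESeq2 and limma voom also called 0. For Eepd1 the difference was -0.09 ± 0.37 on the log2 scale, with a 95% interval from -0.87 to 0.69. Between stroke and no stroke in aged mice edgeR again called 0 of 8, with 0% of all genes passing and 2 members, Eepd1 and Scd2, at an unadjusted p under 0.05; limma voom called 0 and DESeq2 1.

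For these 2 members the estimated bexarotene effect was nearer to 0 after stroke. For Eepd1 the effect was smaller after stroke by 1.57 ± 0.36 log2 units (difference -1.57, 95% interval -2.34 to -0.79), with an adjusted p of 0.817 by edgeR and 0.0377 by DESeq2, where 0.058% of all genes passed by DESeq2. For Scd2 the difference was 0.63 ± 0.24 (95% interval 0.12 to 1.14, adjusted p = 1.00, edgeR). The intervals for Rnf145 (-0.35 to 0.22) and Arl4c (-0.48 to 0.40) spanned 0.

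The exporters Abcg1 and Abca1, outside these 8, serve as the reference of the pathway. Abcg1 rose by 2.23 ± 0.14 in young mice, 2.23 ± 0.14 in aged mice and 1.28 ± 0.13 after stroke, and Abca1 by 1.11 ± 0.14 in young and 0.96 ± 0.14 in aged mice (log2, edgeR). After stroke Abca1 was at 0.58 ± 0.14 (adjusted p = 0.227, edgeR) and did not pass. Eepd1 alone among the 8 had estimates in the range of Abcg1 without stroke. In the authors' deposited table for young mice, which lists 197 genes, 5 of the 8 members appear, with log2 fold changes of 2.49 for Eepd1, 0.66 for Arl4c, 0.63 for Rnf145, 0.54 for Mylip and -0.44 for Scd2. The authors' deposited table for aged mice lists the same 5 among 149 genes, with Eepd1 at 2.42 and Scd2 at -0.56, and that for stroke lists 4 among 96, with Mylip at 0.73, Eepd1 at 0.69, Arl4c at 0.54 and Rnf145 at 0.50. Mylip, Scd2, Arl4c and, after stroke, Eepd1 are thus listed there in settings where edgeR's adjusted p lay above the threshold. The deposited log2 fold changes come from the authors' own method, so their sizes are not directly comparable with those of edgeR.

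Markers of other cells were set beside the bexarotene results. The sum of 6 astrocyte markers was 299 to 420 CPM under vehicle and 580 to 906 CPM under bexarotene in young mice, and 334 to 482 CPM against 491 to 728 CPM in aged mice. Most of it was Slc1a3, at a mean of 342 and 700 CPM in the young groups, while the defining astrocyte genes Aqp4 and Gfap were at or below 3.06 CPM in every group mean. The monocyte sum ranged from 36.0 to 182 CPM in young mice and from 51.2 to 157 CPM in aged mice; the aged bexarotene libraries (99.9 to 157 CPM) lay above the aged vehicle libraries (51.2 to 84.7 CPM). The sum of 8 neutrophil genes was 193 to 396 CPM in the aged vehicle libraries and 579 to 1412 CPM in the aged bexarotene libraries, without overlap. B cell genes in young mice went the other way, at 441 to 495 CPM under vehicle and 286 to 435 CPM under bexarotene, also without overlap. After stroke the choroid plexus sum was 932 to 3222 CPM under vehicle and 143 to 722 CPM under bexarotene, so it separated these groups by treatment as well. The part of these cells in the 8 genes' levels was not tested.

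Age alone was compared in vehicle-treated mice, and by edgeR 0 of 8 members passed, where 1.7% of all genes did. At an unadjusted p under 0.05 there were 2, Lpcat3 and Scd2; DESeq2 and limma voom called 0. Lpcat3 was lower in all 3 aged libraries (158, 150.5 and 154 CPM) than in the young ones (166, 191 and 191 CPM), with a log2 difference of -0.25 ± 0.09 and an adjusted p of 0.190. Scd2 differed by -0.38 ± 0.17 (adjusted p = 0.350) with overlapping groups. Eepd1 was lower in aged mice without overlap (-0.37 ± 0.27, adjusted p = 0.640), and with Lpcat3 made 2 of 8 members whose groups did not overlap, as 18.4% of all genes did. Mylip at -0.03 ± 0.16, Arl4c at 0.02 ± 0.15 and Smpdl3a at 0.02 ± 0.17 had 95% intervals that reached no further than -0.37 and 0.37, while Rnf145 (-0.17 ± 0.10) and Srebf1 (-0.10 ± 0.12) lay a little below the young mean. The authors' deposited table for age lists 451 genes and 0 of the 8.

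With stroke under vehicle Smpdl3a and Srebf1 rose, and Mylip, Rnf145 and Lpcat3 fell. Under vehicle 5 of 8 passed by edgeR, 2 higher and 3 lower, against 48.3% of all genes (27.2% higher, 21.1% lower), so the share of members called was not far from that of all genes. The groups did not overlap for 6 of 8, against 56.1% of all genes. Under bexarotene 6 of 8 passed, 2 higher and 4 lower, against 48% of all genes (26.8% higher, 21.2% lower), and 6 of 8 did not overlap, against 56.3%. The comparison under vehicle and that under bexarotene use separate libraries.

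Smpdl3a had the largest stroke difference of the 8. It stood at 44.6 to 49.5 CPM in aged vehicle mice and at 189 to 298 CPM after stroke, and it rose by 2.41 ± 0.17 on the log2 scale under vehicle (adjusted p = 6.19e-09, edgeR). Under bexarotene it rose by 2.09 ± 0.17 (adjusted p = 2.60e-08), from 49.8 to 53.0 CPM to between 184 and 275 CPM. Every stroke library was above every other library of the series. The 6 monocyte markers, Ccr2 and Ly6c2 among them, all rose with stroke in both treatments, and within the stroke bexarotene libraries Smpdl3a (184, 275 and 199 CPM) had the same order as their sum (1439, 3569 and 2182 CPM). In the stroke vehicle libraries the orders differed (298, 189 and 264 CPM beside 2472, 1987 and 2910 CPM). The part of monocyte-derived cells in the stroke difference of Smpdl3a was not tested.

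Srebf1 rose with stroke under vehicle by 0.46 ± 0.12 (adjusted p = 0.00375, edgeR), from 47.0 to 53.6 CPM to between 62.0 and 75.0 CPM. Under bexarotene the Srebf1 difference was 0.21 ± 0.12 (adjusted p = 0.142) and the groups overlapped. Without the libraries numbered 1 the difference under vehicle had an adjusted p of 0.0612.

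The sterol-control genes Mylip and Rnf145 fell with stroke. Mylip went from a mean of 293 ± 24.7 CPM (SD, n = 3) to 131 ± 5.28 CPM under vehicle, a log2 change of -1.16 ± 0.16 (adjusted p = 1.42e-05, edgeR). Under bexarotene it went from 405 ± 52.2 to 231 ± 56.3 CPM (-0.81 ± 0.16, adjusted p = 0.000487). In the treated stroke mice the highest Mylip library, at 289 CPM, was within the range of the aged vehicle mice without stroke, 272 to 320 CPM. Rnf145 changed by -0.58 ± 0.10 under vehicle (adjusted p = 6.82e-05) and by -0.64 ± 0.10 under bexarotene (adjusted p = 2.30e-05), and the treated stroke libraries (194 to 233 CPM) overlapped the untreated libraries without stroke (207 to 226 CPM).

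Lpcat3 fell by 0.48 ± 0.09 on the log2 scale under vehicle (adjusted p = 0.000159, edgeR) and by 0.59 ± 0.09 under bexarotene (adjusted p = 1.96e-05). The 6 stroke libraries, at 102 to 135 CPM, were below all 12 libraries without stroke. The summed microglial markers fell between the same groups, from 32898 to 36304 CPM in aged vehicle mice to between 14536 and 15610 CPM after stroke. Genes of handling and dissociation summed to 966 to 1729 CPM in aged vehicle mice and to 3034 to 4774 CPM after stroke. Under bexarotene the sums were 1164 to 1882 CPM and 2036 to 4487 CPM. These 6 genes did not move together, and under vehicle 3 passed as higher with stroke and 2 as lower. Mean Fos went from 227 to 1759 CPM, while Hspa1a went from 96.9 to 15.4 CPM and Hspa1b from 183 to 21.3 CPM. The part of the microglial or the handling genes in the stroke differences of the 8 genes was not tested.

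Eepd1 and Scd2 differed with stroke in the treated mice. Eepd1 was 115 ± 28.6 CPM (SD, n = 3) in treated aged mice and 50.9 ± 16.0 CPM in treated stroke mice, a log2 change of -1.19 ± 0.25 (adjusted p = 0.000965, edgeR). Under vehicle its difference was 0.38 ± 0.26 (adjusted p = 0.254), in the other direction. Scd2 was 79.4 ± 8.65 CPM in treated aged mice and 133 ± 13.5 CPM in treated stroke mice (0.75 ± 0.17, adjusted p = 0.00158), and 0.12 ± 0.17 was its difference under vehicle (adjusted p = 0.592). Arl4c had the smallest stroke differences of the 8, at 0.09 ± 0.15 under vehicle and 0.05 ± 0.15 under bexarotene, with overlapping groups.

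**Figure D3:**
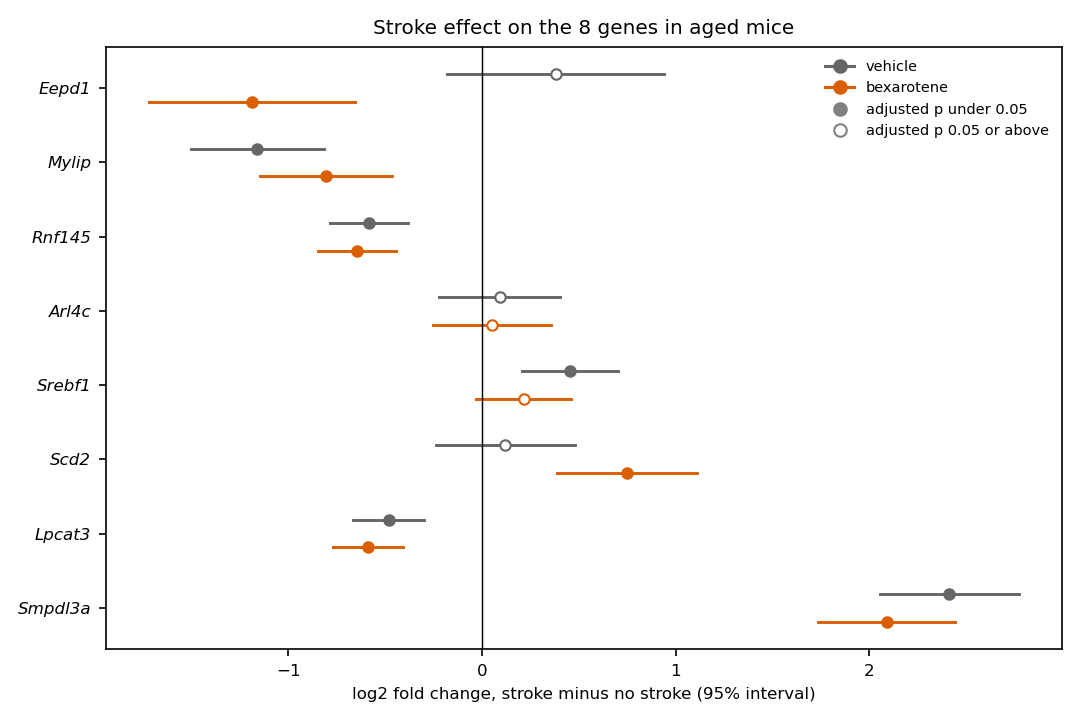
Log2 fold change of stroke against no stroke in aged mice (x axis) for each of the 8 genes (y axis), under vehicle and under bexarotene. Points are edgeR estimates, bars are 95% intervals, and filled points had an adjusted p under 0.05. Smpdl3a stands at 2.41 and 2.09, Mylip at -1.16 and -0.81, and Eepd1 at 0.38 under vehicle and -1.19 under bexarotene.

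**Figure D4:**
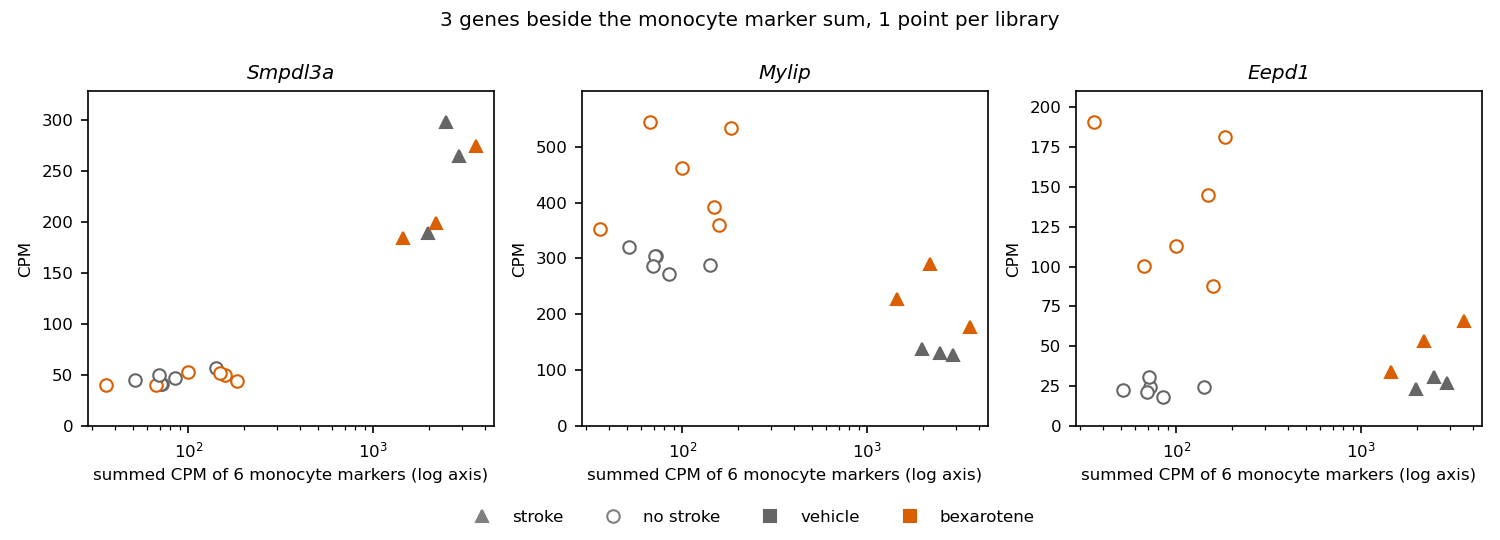
CPM of Smpdl3a, Mylip and Eepd1 (y axis, linear from 0) beside the summed CPM of 6 monocyte markers (x axis, log scale), 1 point per library, with shape for stroke and colour for treatment. The 6 stroke libraries, at marker sums of 1439 to 3569 CPM, are apart from the 12 others on the x axis. Their Smpdl3a lies between 184 and 298 CPM, above all other libraries. Their Mylip, between 126 and 289 CPM, and their Eepd1, between 22.7 and 65.7 CPM, overlap the libraries without stroke.

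The genes that work with the members were given by list, and their stroke counts are to be read against the 48.3% of all genes that passed under vehicle and the 48% under bexarotene. Among 8 receptor and cofactor genes, 0 passed in any of the 3 bexarotene comparisons. Rxrg, an RXR gene, was the 1 that rose with age, from a mean of 0.209 to 9.64 CPM (adjusted p = 5.47e-05, edgeR). With stroke under vehicle Nr1h3, which encodes LXR alpha, rose from 1.59 to 11.9 CPM (2.90 ± 0.47), while Rxra (-0.71 ± 0.11) and Rxrb (-0.76 ± 0.10) fell; Nr1h2, which encodes LXR beta, was at 64.9 CPM in aged and 61.8 CPM in stroke vehicle mice and did not pass. The same 3 genes passed under bexarotene, with log2 changes of 3.23 ± 0.48, -0.49 ± 0.11 and -0.60 ± 0.10.

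Among the genes listed with Mylip, its substrate Lrp8, also called ApoER2, rose with stroke. Lrp8 went from 1.02 to 9.48 CPM under vehicle (3.20 ± 0.79, adjusted p = 0.00316, edgeR) and from 0.594 to 5.97 CPM under bexarotene (3.33 ± 0.85, adjusted p = 0.00390). In the 3 bexarotene comparisons 0 of the listed genes passed.

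Genes of SREBP processing and sterol synthesis went in both directions with stroke under vehicle. Sqle (1.25 ± 0.18), Insig1 (1.01 ± 0.19) and Srebf2 (0.49 ± 0.15) rose, while Scap, which escorts SREBP and is acted on by Rnf145, changed by -0.61 ± 0.11 and Insig2 by -0.64 ± 0.10. Rnf139, a ubiquitin ligase of the same membrane as Rnf145, fell too (-0.51 ± 0.12). In the bexarotene comparisons 0 genes of this list passed.

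Of 14 fatty acid synthesis and desaturation genes, 11 were tested and 0 passed with bexarotene in any setting. Fasn, a classical target of SREBP-1c, was at -0.30 ± 0.25, 0.08 ± 0.25 and 0.08 ± 0.23 on the log2 scale in young, aged and stroke mice. Scd1, the close relative of Scd2, had a mean level of 1.55 CPM in vehicle-treated young mice and 2.73 CPM in vehicle-treated aged mice. With stroke under vehicle Fasn (0.76 ± 0.24) and Acaca (0.94 ± 0.35) rose, and Mlxipl (-1.21 ± 0.22), Fads1 (-0.49 ± 0.14) and Acly (-0.33 ± 0.10) fell. Under bexarotene 3 of the 11 rose and 3 fell, Acss2 (1.20 ± 0.45) being added.

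The phospholipid and sphingomyelin relatives of Lpcat3 and Smpdl3a numbered 10. With stroke under vehicle Lpcat4 rose from 1.81 to 8.13 CPM (2.15 ± 0.31), and Lpcat1 (-0.92 ± 0.12), Lpcat2 (-1.04 ± 0.12), Smpd1 (-0.44 ± 0.11) and Smpd2 (-0.80 ± 0.17) fell. Smpd1, which encodes acid sphingomyelinase itself, thus moved the other way from Smpdl3a. With bexarotene 0 of the 10 passed in a single setting, and Lpcat1 passed in the mean over the 3 (-0.26 ± 0.07, adjusted p = 0.0454, edgeR), opposite in sign to Lpcat3. Of the relatives of Arl4c, Arl4a and Arl4d, 0 of 2 passed in any comparison.

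Likeness of pattern was measured as the root mean square difference between the log2 group means of 2 genes over the 6 groups, each centred on its own mean, among 9298 candidate genes with a mean of at least 10 CPM. These values are descriptions over 6 groups that share libraries. Eepd1 was most like Abcg1, at 0.30, and next Camkk1, at 0.33. Mylip was most like A830008E24Rik and N4bp2l1 (both 0.08), Rnf145 like Tpcn1 and Gm45640 (both 0.09), and Arl4c like ENSMUSG00000120224 (0.12) and Uhrf1bp1 (0.13). Of the other members, Smpdl3a was most like Sh3bgrl (0.07) and Gm13237 (0.08), and Lpcat3 like Dcun1d2 (0.03) and Ccdc84 (0.04). Srebf1 was most like Gm8116 and Flvcr1 (both 0.04), and Scd2 like Lmln and AC169509.1 (both 0.13). Within the 8, the closest pair was Mylip and Rnf145 at 0.18, followed by Rnf145 and Lpcat3 at 0.22.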

How the data were processed

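The authors deposited whole-number counts per gene for 18 libraries, with no normalization, and tables of their own comparisons with mean normalized signal per gene, log2 fold changes, and p-values. Per the submitters' processing notes, the tools were STAR 2.7.10a, Trimmomatic 0.40, R 4.4.2 and GATK, on GRCm39; annotation and strand setting were not given in the sources used here. From the counts, 15528 genes passed edgeR's filterByExpr, libraries were scaled by TMM (factors 0.937 to 1.05), and 1 fit of 6 group means (edgeR 4.0.16, robust quasi-likelihood, 12 residual degrees of freedom) gave each contrast, with Benjamini-Hochberg adjustment over all genes tested and SE taken from the F statistic. CPM are scaled by TMM. DESeq2 1.42.0 and limma 3.58.1 (voom) were alternatives. Rows without a gene symbol held 0.326% of counts. Replicates of a group differed by more than sampling noise (chi-square per degree of freedom 5.77 to 36.2); nothing states that they came from separate animals, so p-values measure the spread between these samples. The scripts were tested on simulated data. Replicate numbers paired the young libraries by the data (correlations of same-numbered deviations 0.26, 0.28 and 0.14). Same-numbered libraries also matched best between treated aged mice with and without stroke, more weakly (0.13, 0.12 and 0.03). For age, bexarotene in aged mice and stroke under vehicle, libraries 1 and 2 matched best by number and library 3 did not. For bexarotene after stroke only library 1 did. Exon lengths came from GENCODE M21 and promoters from RefSeq. All 8 genes are named in every comparison; other pathway genes are named by list where called and where they are receptors, substrates, partners or relatives of a member. The members and lists were chosen with earlier results of these data known. Some genes of these lists are not reported here.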

Additional observations from a re-analysis of the deposited data

How the results depend on the processing

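Among the members' log2 fold changes under all alternatives, 1026 kept their direction and side of the threshold, 40 lost a call, 18 gained one and 36 changed sign; the causes were not tested. Members called in young mice were 5 with no filter on low counts, 4 by DESeq2, 2 without the libraries numbered 1, 2 with only the groups compared, and 2 to 4 leaving out single libraries (3 in the report). In aged mice they were 4 by DESeq2, 4 with no filter, and 1 to 3 leaving out single libraries (2 in the report). After stroke they were 0 with DESeq2 size factors, 3 by DESeq2, 4 with no filter, 0 without the libraries numbered 1, 0 with only the 2 groups, and 0 to 2 leaving out single libraries (1 in the report). For the stroke interaction DESeq2 and no filter each called 1, Eepd1. With the replicate number as a block the counts were 3, 2, 1 and 6 in young mice, aged mice, stroke and the mean, 5 and 6 for stroke under vehicle and bexarotene, and 0 for age and both interactions, so the pairing changed no count.

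Sign changes were as follows. For age, Mylip was 0.000380 with no filter, 0.0264 without the libraries numbered 1 and -0.106 to 0.0158 leaving out single libraries; Smpdl3a was -0.0715 without the libraries numbered 1 and -0.0706 to 0.188 leaving out single ones; Arl4c was -0.0677 to 0.0800. For bexarotene after stroke, Scd2 was 0.00473 by voom and -0.19 to 0.17 leaving out single libraries, Srebf1 was -0.10 to 0.15, and Smpdl3a was 0.0848 without the libraries numbered 1. For stroke, Arl4c under bexarotene was -0.12 without the libraries numbered 1 and -0.0916 to 0.183 leaving out single ones, and Scd2 under vehicle was -0.0653 to 0.278. For the age interaction, Eepd1 was 0.20 and Rnf145 0.0183 without the libraries numbered 1, and leaving out single libraries gave -0.317 to 0.0756 for Eepd1 and -0.173 to 0.0896 for Scd2. For the stroke interaction, Rnf145 was 0.0173 without the libraries numbered 1 and -0.134 to 0.0484 leaving out single ones, and Arl4c was -0.183 to 0.0914. The precision was limited by 3 libraries a group, at a square root of the common dispersion of 0.195.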
